A study of Mus musculus with 9 samples.

Results

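Transcript levels of 33 genes of cholesterol and fatty acid metabolism were compared in mouse CD8+ T cells that had been cultured alone or with stromal cells. The set was given as a list of gene symbols: 17 enzymes of sterol synthesis, 6 genes of the SREBP pathway and sterol transfer, 8 enzymes of fatty acid synthesis and 2 sterol exporters. Each symbol matched 1 of the 55421 genes in the count table, and all 33 passed the low-count filter that left 15711 genes. RNA depleted of ribosomal RNA was sequenced from 9 bulk libraries, 3 per group, lettered B, C and D. All T cells came from spleens of Pmel Ly5.1 mice, whose CD8+ cells carry a transgenic receptor for a melanocyte antigen, crossed to the Ly5.1 congenic marker. The control group (monoculture) had no stromal cells. The other groups had spent 36 h with DM5, an immortalised bone marrow stromal line from the BL6 strain with DsRed-labelled mitochondria, and were sorted for CD8 and DsRed. DsRed-positive T cells formed the MitoPositive group and DsRed-negative T cells from the same kind of co-culture formed the MitoNegative group. DM5 is a single line, the titles of all libraries also carry a time of 0 h that the labels do not explain, and the age of the mice is not given in the sources used here.

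Cells make cholesterol from acetyl-CoA through the mevalonate pathway, and fatty acids from the same precursor by carboxylation, elongation and desaturation. Both routes are driven by SREBP transcription factors, which leave the endoplasmic reticulum with the escort protein SCAP when sterols are scarce and are held there by INSIG proteins when sterols are plentiful. The liver X receptors respond to oxysterols, raise the exporters ABCA1 and ABCG1, and activate the gene of SREBP-1. Activated T cells are known to raise these synthesis genes when they grow and divide.

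Libraries held 53546152 to 74722832 counts. Levels below are CPM, the counts relative to the library size as scaled by edgeR, in the order B, C and D, and differences are log2 fold changes ± standard error from edgeR's quasi-likelihood test over all 15711 genes, with n = 3 per group. Nothing in the labels says that the letters mark separate mice or cultures, so each p-value reflects the spread among these libraries alone, and that spread may be technical. In each group the CD8 T cell markers were abundant, with Cd8a at 1253, 1066 and 1204 CPM in monoculture, 1319, 1302 and 1189 CPM in MitoNegative, and 1273, 1182 and 1152 CPM in MitoPositive. Ptprc, the highest of them and a gene of all white blood cells, was at 2808, 2531 and 2478 CPM in monoculture, 2248, 2236 and 2263 CPM in MitoNegative, and 2454, 2331 and 2268 CPM in MitoPositive. Of genes averaging at least 5 CPM, as all these markers did, 25.1% were lower than monoculture in MitoNegative and 26.5% in MitoPositive cells. Of 10 such markers 8 were lower in MitoNegative and 7 in MitoPositive cells than in monoculture. Their median log2 fold change was -0.31 in both. Cd5, an inhibitory co-receptor, had the largest change (-1.42 ± 0.093, adjusted p = 1.07e-06 and -1.75 ± 0.094, adjusted p = 1.50e-07). The sum of the 10 was 8153 to 9092 CPM in monoculture, 7213 to 7557 CPM in MitoNegative and 7300 to 7704 CPM in MitoPositive cells. Markers of stromal cells moved with co-culture. Higher levels in MitoNegative and MitoPositive cells were called for 20.6% and 22.3% of all genes. Of the 30 listed stromal markers 22 were measured, and 21 were higher in both co-cultured groups. Their sum was 1.11 to 1.66 CPM in monoculture, 19.4 to 52.8 CPM in MitoNegative and 19.6 to 51.1 CPM in MitoPositive cells, and Sparc had 0 counts in the 3 monoculture libraries. Fn1, the highest of them, was at 0.0819, 0.0665 and 0.0166 CPM in monoculture, 9.04, 9.65 and 3.66 CPM in MitoNegative, and 9.67, 10.03 and 3.28 CPM in MitoPositive. Col1a1 was at 0.344, 0.632 and 0.315 CPM in monoculture, 4.91, 6.06 and 2.25 CPM in MitoNegative, and 3.84, 6.52 and 2.54 CPM in MitoPositive. Between 18 and 21 of the 30 stromal markers were at 0 in monoculture and 2 or 3 in co-culture. Among B cell markers Ighm stood highest, and their sum was 673 to 745 CPM in monoculture, 368 to 463 CPM in MitoNegative and 278 to 310 CPM in MitoPositive cells. Myeloid markers summed to 3.98 to 8.42 CPM over all libraries, led by Cd68, with 3 to 5 of 10 at 0. The part of RNA from these other cells in the results below was not tested.

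Per kilobase of exon the desaturase gene Scd2 had the highest level, 87.4 ± 9.29 CPM per kb (SD) in monoculture, followed by the elongase gene Elovl5 at 51.8 ± 3.32 and the transcription factor gene Srebf2 at 32.0 ± 3.03. The lowest were the desaturase gene Fads2 at 0.154 ± 0.0647 and Fdps at 0.250 ± 0.0434 CPM per kb. The Fdps level is uncertain because 26.7% of its exon bases are shared with the annotated gene Gm43738 on the same strand. In sterol synthesis Hmgcs1 (21.9 ± 0.726 CPM per kb) and Ebp (19.0 ± 2.30) stood highest, and Lss (1.96 ± 0.131) and Hsd17b7 (1.41 ± 0.0848) were the lowest apart from Fdps. The plot of levels per kilobase shows this order over the 33 genes.

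**Figure D1:**
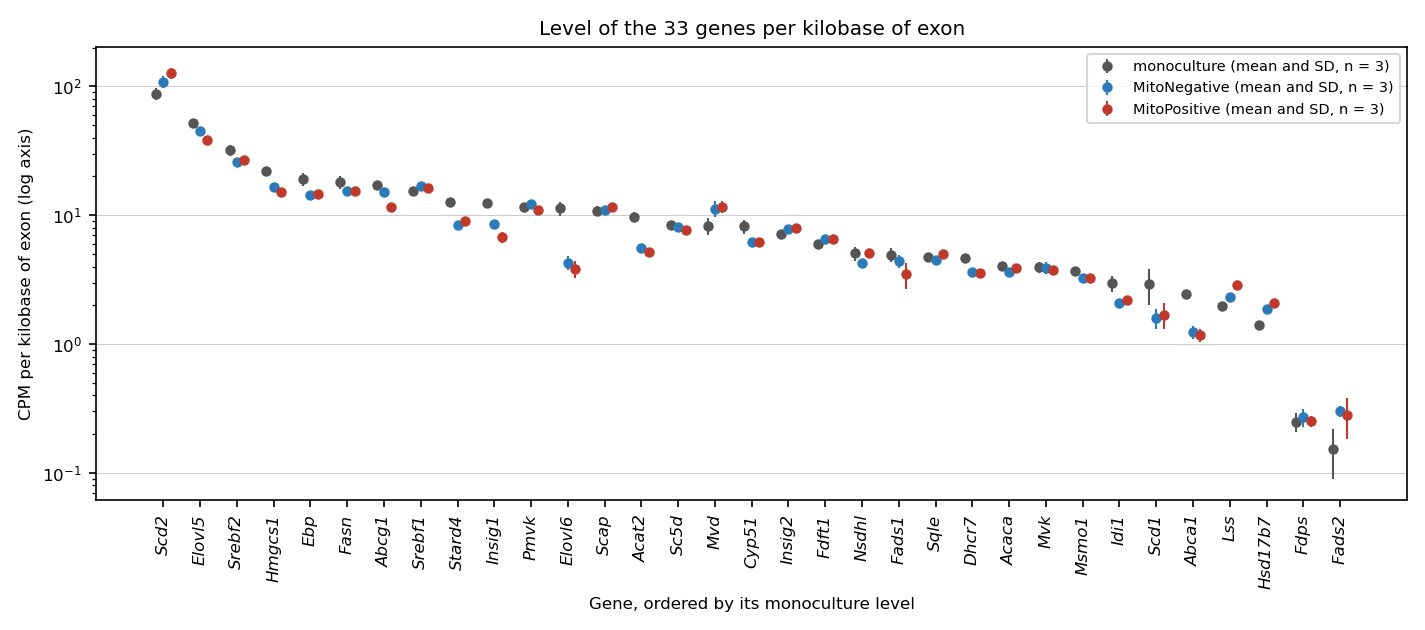
Mean level of each of the 33 genes in CPM per kilobase of exon (log axis), with the SD over 3 libraries as bars, for monoculture (grey), MitoNegative (blue) and MitoPositive (red). Genes are ordered by their monoculture level, from Scd2 at 87.4 to Fads2 at 0.154 CPM per kb, and Elovl6 and Abca1 show the widest drop from grey to both colours.

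Comparison of each co-cultured group with monoculture asked how contact with the stromal culture went with these transcripts. In MitoPositive cells 16 of the 33 genes were lower and 5 higher than in monoculture, and in MitoNegative cells 15 were lower and 5 higher. Over all genes tested 19.9% were lower and 22.3% higher in MitoPositive cells, and 18.3% lower and 20.6% higher in MitoNegative cells. The share of the 33 genes that passed in either direction was 63.6% against 42.2% of all genes for MitoPositive, and 60.6% against 38.9% for MitoNegative cells. Among the 31 members with a mean of at least 5 CPM, 16 were lower in MitoPositive and 15 in MitoNegative cells, where 26.5% and 25.1% of the 9559 genes at that level were lower. The median log2 fold change of the set was -0.18 in both comparisons, while that of all genes was 0.00 and 0.01. Both comparisons use the same 3 monoculture libraries, so they are not independent.

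The genes that fell in each comparison were Acat2, Hmgcs1, Idi1, Cyp51, Ebp, Dhcr7, Srebf2, Insig1, Stard4, Fasn, Scd1, Elovl5, Elovl6 and Abca1, and those that rose in each were Mvd, Lss, Hsd17b7 and Scd2. The other calls were falls of Fads1 and Abcg1 and a rise of Insig2 in MitoPositive cells, and a fall of Acaca and a rise of Fads2 in MitoNegative cells. Only Elovl6 and Abca1 were at least 2-fold lower in MitoPositive cells and only Elovl6 in MitoNegative cells, where 3.37% and 2.30% of all genes were called and that far down. No member rose 2-fold, against 8.97% and 8.20% of all genes. Under each of 20 alternative settings 13 of the 21 calls in MitoPositive and 8 of the 20 in MitoNegative cells held. In MitoNegative cells they were Acat2, Hmgcs1, Ebp, Srebf2, Insig1, Stard4, Elovl6 and Abca1, and in MitoPositive cells Acat2, Hmgcs1, Lss, Ebp, Dhcr7, Hsd17b7, Insig1, Stard4, Elovl5, Elovl6, Scd2, Abca1 and Abcg1. The MitoNegative count was 13 without MitoNegative C, 13 without MitoNegative D, 8 without the 3 libraries of letter C and 12 without those of letter D. The MitoPositive count stayed between 15 and 23. In bulk libraries fewer cells with a transcript and less of it per cell cannot be told apart, here and below.

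**Figure D2:**
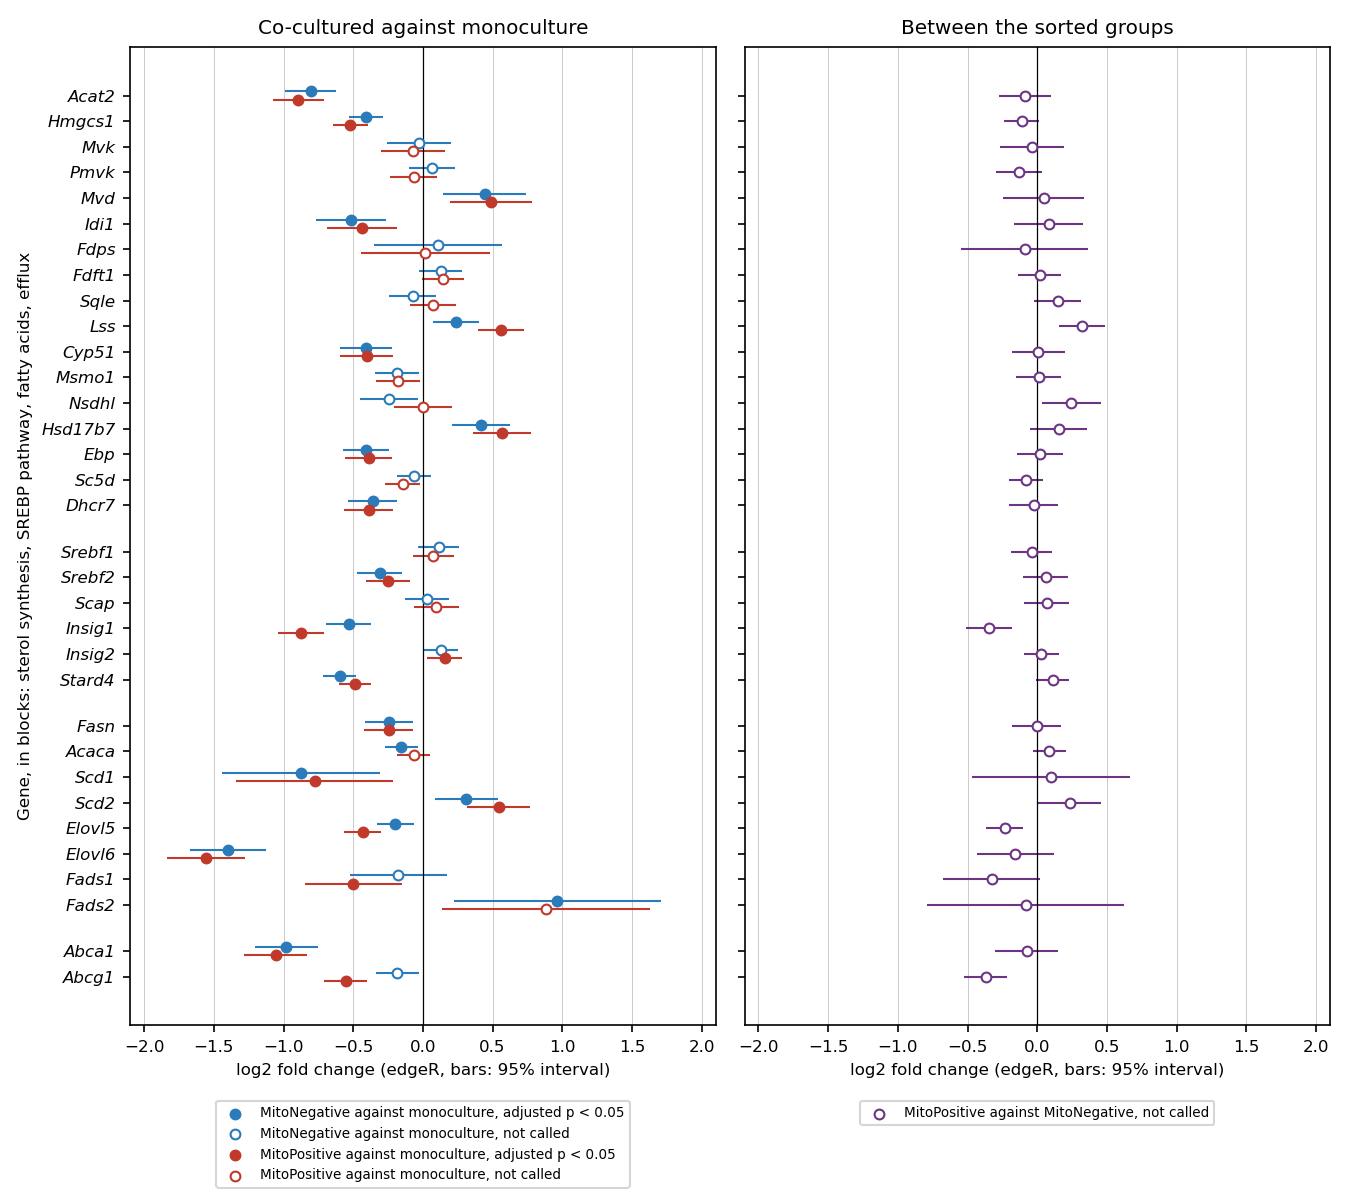
Log2 fold change of each gene with its 95% interval from edgeR, by role. The left panel shows MitoNegative (blue) and MitoPositive (red) against monoculture, and the right panel MitoPositive against MitoNegative; filled points passed an adjusted p of 0.05. Filled points lie to the left of 0 for 16 genes in red and 15 in blue, and no point of the right panel is filled.

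**Figure D3:**
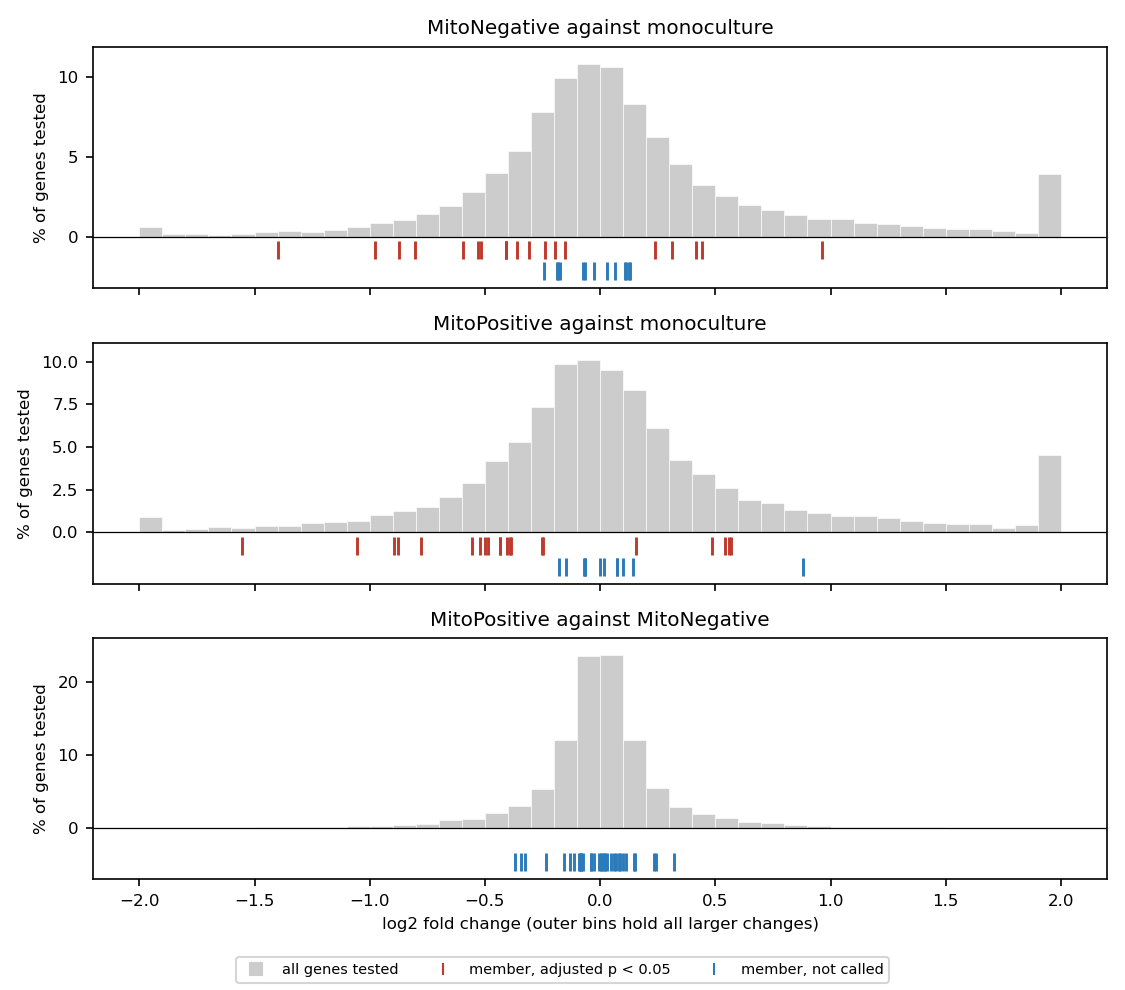
Distribution of log2 fold changes over the 15711 genes tested (grey bars, percent of genes per bin) with a tick for each of the 33 genes, red where the adjusted p was under 0.05 and blue otherwise. The red ticks lie mostly left of 0 in both comparisons with monoculture, and all ticks of the lowest panel are blue.

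In sterol synthesis 6 of 17 enzymes fell and 3 rose in each comparison, and 8 did not pass. That is 52.9% called, against 38.9% of all genes in MitoNegative and 42.2% in MitoPositive cells. The falls were 35.3% of these enzymes, against 18.3% and 19.9% of all genes. The summed level of the 17 genes was 437 to 467 CPM in monoculture, 382 to 396 CPM in MitoNegative and 383 to 402 CPM in MitoPositive cells. Acat2, a thiolase that joins acetyl-CoA units at the start of the route, was at 27.04, 22.6 and 24.5 CPM in monoculture, 13.6, 13.5 and 15.3 CPM in MitoNegative, and 13.2, 13.1 and 13.6 CPM in MitoPositive. Every monoculture library lay above every co-cultured library. Acat2 was 1.75-fold lower in MitoNegative (-0.81 ± 0.084, adjusted p = 2.60e-05) and 1.86-fold lower in MitoPositive cells (-0.89 ± 0.085, adjusted p = 8.59e-06). Hmgcs1, which encodes HMG-CoA synthase, was at 103, 96.9 and 102 CPM in monoculture, 79.4, 77.1 and 70.9 CPM in MitoNegative, and 70.4, 71.1 and 68.9 CPM in MitoPositive. The co-cultured libraries again lay below all monoculture libraries, with -0.41 ± 0.057, adjusted p = 1.92e-04 in MitoNegative and -0.52 ± 0.057, adjusted p = 2.61e-05 in MitoPositive cells. Part of the Hmgcs1 exons (12.1%) overlaps the antisense gene Gm48342, and strand use in counting is not given in the sources used here.

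In the next steps of the mevalonate route 1 gene rose and 1 fell. Mvk and Pmvk, the kinases that phosphorylate mevalonate and its phosphate, did not pass in either comparison. Mvk gave -0.03 ± 0.10 in MitoNegative and -0.07 ± 0.10 in MitoPositive cells, with 95% intervals of -0.26 to 0.20 and -0.30 to 0.16. Pmvk gave 0.06 ± 0.076 with an interval of -0.10 to 0.23 and -0.07 ± 0.076 with an interval of -0.23 to 0.10. Mvd, the decarboxylase that makes isopentenyl diphosphate, was at 12.6, 16.3 and 17.2 CPM in monoculture, 17.5, 22.4 and 22.9 CPM in MitoNegative, and 19.3, 23.6 and 21.9 CPM in MitoPositive. The lowest co-cultured library (17.5 CPM) was just above the highest monoculture library (17.2 CPM), and Mvd rose in MitoNegative (0.44 ± 0.13, adjusted p = 0.0226) and MitoPositive cells (0.49 ± 0.13, adjusted p = 0.0129). Idi1, which isomerises that product, was at 8.88, 10.6 and 11.9 CPM in monoculture, 6.87, 7.49 and 7.53 CPM in MitoNegative, and 7.45, 7.75 and 7.96 CPM in MitoPositive and fell in both (-0.52 ± 0.11, adjusted p = 0.00378 and -0.44 ± 0.11, adjusted p = 0.00890). Monoculture stood above every co-cultured library, and 9.22% of its exon bases are shared with an opposite-strand gene. Fdps, the farnesyl diphosphate synthase, and Fdft1, the squalene synthase, did not pass. Fdft1 gave 0.13 ± 0.070 and 0.14 ± 0.070, and 18.3% of its exon bases overlap Ctsb on the opposite strand. The Mvd call in MitoNegative cells was lost without monoculture B, MitoNegative C, MitoNegative D, letter C or letter D (adjusted p from 0.0698 to 0.128), and in MitoPositive cells without MitoPositive C or letter C (adjusted p from 0.0513 to 0.0994). The Idi1 call was lost without letter C (adjusted p = 0.0619) in MitoNegative and without letter C or letter D (adjusted p from 0.0542 to 0.104) in MitoPositive cells.

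The next enzymes lead from squalene to lanosterol. Sqle, the squalene epoxidase, did not pass in either comparison (-0.07 ± 0.077, interval -0.24 to 0.10, and 0.07 ± 0.077, interval -0.10 to 0.24). Lss, which cyclises squalene epoxide to lanosterol, was at 22.7, 20.7 and 19.97 CPM in monoculture, 23.6, 24.6 and 26.6 CPM in MitoNegative, and 30.5, 33.3 and 29.5 CPM in MitoPositive. Its groups rose in steps without overlap. Lss was 1.18-fold higher in MitoNegative (0.24 ± 0.076, adjusted p = 0.0260) and 1.47-fold higher in MitoPositive cells (0.56 ± 0.075, adjusted p = 1.20e-04). The MitoNegative call for Lss was lost without MitoNegative C, monoculture C, MitoNegative D, monoculture D, letter C or letter D (adjusted p from 0.0536 to 0.156). It was also lost with only the 6 libraries compared and the replicate letter as a block (adjusted p = 0.0549).

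Among the enzymes that turn lanosterol into cholesterol, 3 fell and 1 rose in both comparisons. Cyp51, the lanosterol demethylase, was at 31.1, 38.4 and 39.03 CPM in monoculture, 26.1, 26.99 and 28.6 CPM in MitoNegative, and 25.95, 27.3 and 28.8 CPM in MitoPositive and fell (-0.41 ± 0.087, adjusted p = 0.00304 and -0.40 ± 0.087, adjusted p = 0.00284). Ebp, the sterol isomerase, was at 42.1, 39.8 and 49.99 CPM in monoculture, 32.8, 33.8 and 32.8 CPM in MitoNegative, and 33.4, 34.02 and 33.3 CPM in MitoPositive, with no overlap between monoculture and co-culture (-0.41 ± 0.076, adjusted p = 0.00135 and -0.39 ± 0.076, adjusted p = 0.00155). Dhcr7, which reduces the last double bond in a branch of the route, was at 25.6, 26.3 and 28.98 CPM in monoculture, 19.9, 20.9 and 22.1 CPM in MitoNegative, and 19.02, 20.4 and 22.5 CPM in MitoPositive. It fell without overlap in MitoNegative (-0.36 ± 0.080, adjusted p = 0.00399) and MitoPositive cells (-0.39 ± 0.080, adjusted p = 0.00221). Hsd17b7, a ketosteroid reductase that acts after C4 demethylation, was at 7.70, 6.95 and 6.95 CPM in monoculture, 9.15, 10.4 and 9.26 CPM in MitoNegative, and 10.2, 11.02 and 10.8 CPM in MitoPositive. This rise was 1.33-fold in MitoNegative (0.42 ± 0.096, adjusted p = 0.00482) and 1.48-fold in MitoPositive cells (0.57 ± 0.096, adjusted p = 5.61e-04). Msmo1, the C4 methyl oxidase, and Sc5d, the sterol desaturase, had values below 0 that did not pass, at -0.19 ± 0.073 and -0.18 ± 0.073 for Msmo1 and -0.06 ± 0.056 and -0.15 ± 0.056 for Sc5d. With the replicate letter as a block Msmo1 passed in MitoNegative (adjusted p = 0.0451) and Sc5d in MitoPositive cells (adjusted p = 0.0496). Nsdhl, the decarboxylating dehydrogenase, gave -0.24 ± 0.096 in MitoNegative (adjusted p = 0.0635) and 0.00 ± 0.096 in MitoPositive cells (adjusted p = 0.9999). Without the 3 libraries of letter C, Cyp51 no longer passed in MitoNegative (adjusted p = 0.0747) or MitoPositive cells (adjusted p = 0.0674). Dhcr7 (adjusted p = 0.0573) and Hsd17b7 (adjusted p = 0.121) then did not pass in MitoNegative cells. Some of these genes passed when a library was left out. Without monoculture C, Msmo1 was lower in both (adjusted p = 0.0360 and 0.0392). Without monoculture B, Nsdhl was lower in MitoNegative cells (adjusted p = 0.0362) and Sc5d in MitoPositive cells (adjusted p = 0.0340). Without monoculture D, Fdft1 was higher in both (adjusted p = 0.0377 and 0.0242).

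Promoter windows from RefSeq (GRCm38.p6) are shown for 2 genes that fell and 2 that rose, to set their letters side by side. Each is the 250 bases before the RefSeq start site, 5′ to 3′ on the gene's strand. Capitals mark CCAAT (or ATTGG on the other strand), which binds NF-Y, a partner of SREBP, the E-box CACGTG, and the sterol element pattern TCACNCCAC. Hmgcs1 lies at chr13:119690101-119690350 on the plus strand, Insig1 at chr5:28071162-28071411 on the plus strand, Lss at chr10:76531355-76531604 on the plus strand and Hsd17b7 at chr1:169969206-169969455 on the minus strand.
Hmgcs1: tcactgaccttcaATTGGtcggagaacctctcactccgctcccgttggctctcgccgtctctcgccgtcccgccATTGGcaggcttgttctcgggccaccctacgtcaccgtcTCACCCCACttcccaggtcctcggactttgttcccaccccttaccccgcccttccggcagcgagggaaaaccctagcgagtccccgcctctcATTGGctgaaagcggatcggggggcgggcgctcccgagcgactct
Insig1: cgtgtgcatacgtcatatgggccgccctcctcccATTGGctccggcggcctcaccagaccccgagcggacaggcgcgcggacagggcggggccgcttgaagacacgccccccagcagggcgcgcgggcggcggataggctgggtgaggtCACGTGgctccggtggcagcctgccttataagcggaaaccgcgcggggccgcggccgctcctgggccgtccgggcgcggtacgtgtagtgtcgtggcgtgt
Lss: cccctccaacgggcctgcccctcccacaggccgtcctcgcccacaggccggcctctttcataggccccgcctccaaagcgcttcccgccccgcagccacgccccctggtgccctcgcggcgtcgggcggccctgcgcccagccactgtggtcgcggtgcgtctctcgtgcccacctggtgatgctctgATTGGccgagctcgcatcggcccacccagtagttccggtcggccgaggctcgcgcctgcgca
Hsd17b7: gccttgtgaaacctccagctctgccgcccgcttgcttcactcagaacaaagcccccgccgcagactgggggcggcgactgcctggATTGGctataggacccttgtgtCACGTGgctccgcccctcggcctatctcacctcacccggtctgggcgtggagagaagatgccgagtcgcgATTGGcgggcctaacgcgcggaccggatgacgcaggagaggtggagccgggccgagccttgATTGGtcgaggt
In the 25 members with a window (250 bases before to 50 after the start), CCAAT was present on either strand in 19, or 76.0%, against 41.1% of 27025 genes. The 12 genes with a window that fell in both comparisons held CCAAT in 9, and the 3 that rose in both held it in 3. CACGTG was present in 7 members, or 28.0%, against 8.09% of genes. TCACNCCAC was found in Hmgcs1 alone of the 25, 137 bases before the start site, and in 1.44% of genes. These matches are letters in a short window and do not show binding. The 27025 genes include genes that did not pass the low-count filter, which all members passed. Shares among the tested genes alone were not computed. In 27 of the 33 windows of these members the bases just after the start matched a transcript of the gene.

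Of the 6 genes of the SREBP pathway and sterol transfer, Srebf2, Insig1 and Stard4 fell in both comparisons. That is 50% of these genes, where 18.3% of all genes were lower in MitoNegative and 19.9% in MitoPositive cells. Srebf2, which encodes SREBP-2, the factor that drives sterol synthesis, was at 223, 213 and 254 CPM in monoculture, 179, 185 and 192 CPM in MitoNegative, and 182, 199 and 199 CPM in MitoPositive. Monoculture libraries did not overlap with the others, and the changes were -0.31 ± 0.073, adjusted p = 0.00557 in MitoNegative and -0.25 ± 0.073, adjusted p = 0.0160 in MitoPositive cells. Srebf1, which encodes the SREBP-1 isoforms, did not pass (0.11 ± 0.068, interval -0.03 to 0.26, and 0.07 ± 0.068, interval -0.07 to 0.22), nor did Scap (0.03 ± 0.073 and 0.10 ± 0.073). Of Scap exon bases 13.2% are shared with an opposite-strand gene. Without monoculture D, Srebf1 was higher in MitoNegative cells (adjusted p = 0.0477). Insig1, the retention protein that is itself an SREBP target, was at 37.8, 40.5 and 37.03 CPM in monoculture, 25.8, 26.7 and 27.3 CPM in MitoNegative, and 18.7, 22.6 and 21.5 CPM in MitoPositive. The groups did not overlap and were lowest in MitoPositive cells. Insig1 was 1.45-fold lower in MitoNegative (-0.53 ± 0.074, adjusted p = 1.92e-04) and 1.84-fold lower in MitoPositive cells (-0.88 ± 0.075, adjusted p = 4.14e-06). Its paralog Insig2, at 25.3, 24.7 and 24.97 CPM in monoculture, 27.5, 27.6 and 26.8 CPM in MitoNegative, and 28.96, 28.2 and 26.5 CPM in MitoPositive, was higher in MitoPositive cells (0.16 ± 0.058, adjusted p = 0.0461) and did not pass in MitoNegative cells (0.13 ± 0.058, adjusted p = 0.103). Between the sorted groups Insig2 gave 0.03 ± 0.058, adjusted p = 0.924. The MitoPositive call for Insig2 was lost in 15 of the 20 settings, among them without MitoPositive B, MitoNegative B, monoculture B, MitoPositive C, MitoNegative C, monoculture C, MitoNegative D or monoculture D (adjusted p from 0.0507 to 0.166). Stard4, a soluble sterol carrier, was at 70.4, 68.3 and 73.9 CPM in monoculture, 45.2, 46.9 and 48.5 CPM in MitoNegative, and 49.4, 51.4 and 51.1 CPM in MitoPositive. All co-cultured libraries lay below monoculture (-0.60 ± 0.054, adjusted p = 8.68e-06 and -0.49 ± 0.053, adjusted p = 2.65e-05). The Srebf2 call in MitoPositive cells was lost without MitoPositive B, monoculture D or letter B (adjusted p from 0.0557 to 0.0998).

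**Figure D4:**
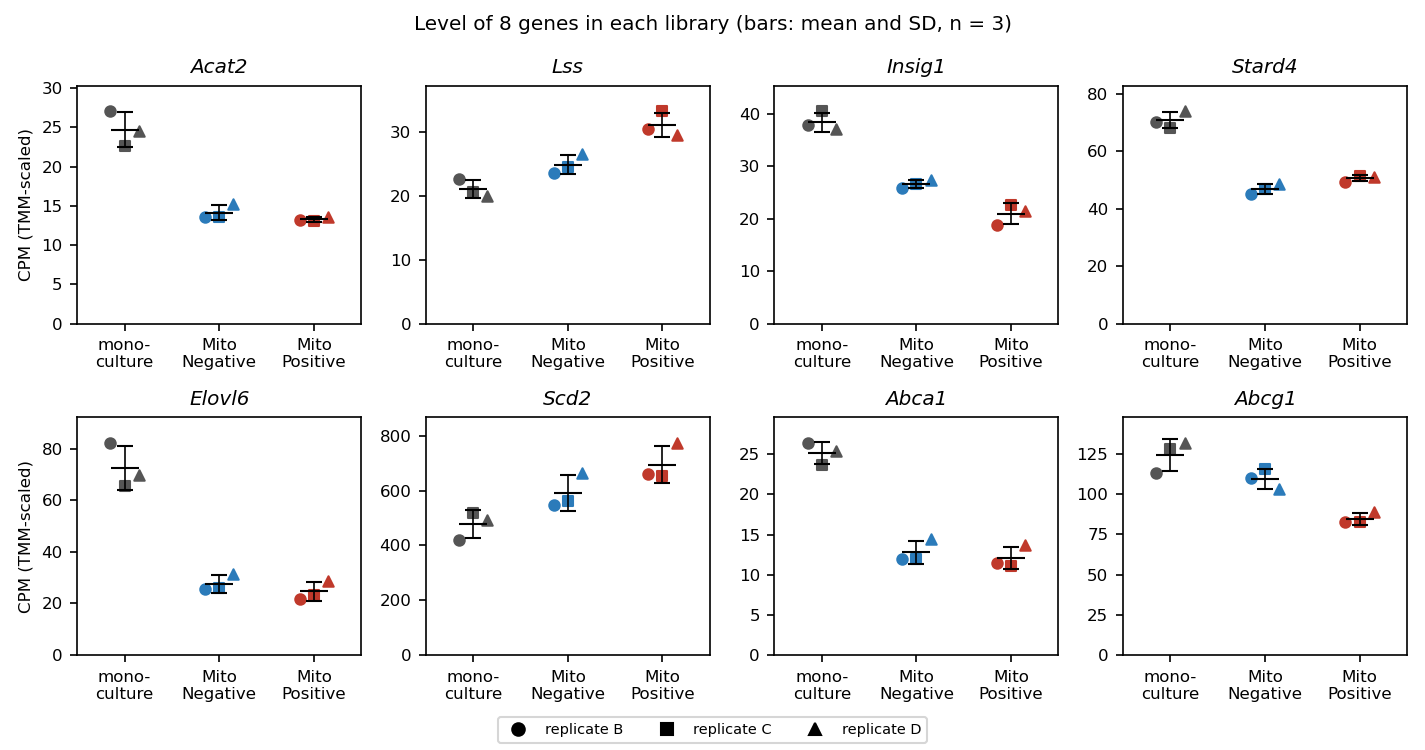
Level in CPM of 8 genes in each library, with the letter as the symbol and the mean and SD of 3 libraries as bars. Monoculture stands above both co-cultured groups for Acat2, Insig1, Stard4, Elovl6 and Abca1, and below them for Lss and Scd2; for Abcg1 the MitoPositive libraries (82.6 to 89.2 CPM) lie below all others.

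In fatty acid synthesis 5 of 8 genes fell in each comparison, with 1 rise in MitoPositive and 2 in MitoNegative cells. The falls were 62.5% of these genes, against 18.3% of all genes in MitoNegative and 19.9% in MitoPositive cells. In either direction 87.5% passed in MitoNegative and 75% in MitoPositive cells, against 38.9% and 42.2% of all genes. The summed level of the 8 genes, of which Scd2 was the highest, did not fall. It was 970 to 1084 CPM in monoculture, 995 to 1108 CPM in MitoNegative and 1062 to 1209 CPM in MitoPositive cells. The largest change of the 33 genes was in Elovl6, which elongates palmitate to stearate. Elovl6 was at 82.2, 65.6 and 69.96 CPM in monoculture, 25.4, 25.8 and 31.4 CPM in MitoNegative, and 21.9, 23.3 and 28.8 CPM in MitoPositive. Its lowest monoculture library stood above 2 times the highest co-cultured library. It was 2.64-fold lower in MitoNegative (-1.40 ± 0.12, adjusted p = 1.66e-05) and 2.94-fold lower in MitoPositive cells (-1.56 ± 0.12, adjusted p = 5.89e-06). Elovl5, which elongates polyunsaturated chains, was at 192, 169 and 186 CPM in monoculture, 163, 163 and 151 CPM in MitoNegative, and 134, 136 and 135 CPM in MitoPositive and fell by less (-0.20 ± 0.060, adjusted p = 0.0219 and -0.43 ± 0.061, adjusted p = 1.56e-04). Fasn, the fatty acid synthase, was at 173, 217 and 206 CPM in monoculture, 166, 172 and 165 CPM in MitoNegative, and 158, 172 and 172 CPM in MitoPositive (-0.24 ± 0.079, adjusted p = 0.0307 and -0.25 ± 0.079, adjusted p = 0.0259), with monoculture B at 173 CPM just above the highest co-cultured libraries at 172 CPM. Acaca, the acetyl-CoA carboxylase, was at 66.1, 73.5 and 67.5 CPM in monoculture, 63.6, 61.1 and 61.4 CPM in MitoNegative, and 65.6, 66.1 and 66.1 CPM in MitoPositive and passed only in the MitoNegative comparison (-0.15 ± 0.054, adjusted p = 0.0422, against -0.07 ± 0.054, adjusted p = 0.354). Whether its changes differed was tested between the sorted groups, with 0.09 ± 0.054, adjusted p = 0.639.

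The stearoyl-CoA desaturase paralogs, which introduce the first double bond, differed in sign. Scd1 was at 9.32, 18.04 and 15.2 CPM in monoculture, 6.26, 8.05 and 8.92 CPM in MitoNegative, and 6.51, 8.18 and 10.2 CPM in MitoPositive. Its libraries were scattered in monoculture, the MitoPositive range overlapped it, and it fell (-0.87 ± 0.25, adjusted p = 0.0212 and -0.78 ± 0.25, adjusted p = 0.0322). Scd2 was at 421, 519 and 492 CPM in monoculture, 547, 563 and 666 CPM in MitoNegative, and 660, 652 and 774 CPM in MitoPositive. All co-cultured libraries were above monoculture, by 1.24-fold in MitoNegative (0.31 ± 0.10, adjusted p = 0.0335) and 1.46-fold in MitoPositive cells (0.54 ± 0.10, adjusted p = 0.00139). The paralogs are alike in sequence, so the split of reads between them is uncertain. Fads1, the delta-5 desaturase, was at 26.6, 20.7 and 24.04 CPM in monoculture, 21.9, 18.3 and 23.00 CPM in MitoNegative, and 15.4, 13.8 and 21.1 CPM in MitoPositive. It overlapped between groups and passed in MitoPositive cells (-0.50 ± 0.16, adjusted p = 0.0255) but not in MitoNegative cells (-0.18 ± 0.16, adjusted p = 0.411). Between the sorted groups Fads1 gave -0.33 ± 0.16, adjusted p = 0.514, and 0.00410 as the adjusted p with the block and those groups alone. Fads2, the delta-6 desaturase, was near the detection limit at 0.262, 0.615 and 0.646 CPM in monoculture, 0.878, 1.06 and 1.04 CPM in MitoNegative, and 0.883, 0.635 and 1.27 CPM in MitoPositive, with as few as 16 counts in a library. It passed in MitoNegative (0.96 ± 0.34, adjusted p = 0.0418) and missed in MitoPositive cells (0.88 ± 0.34, adjusted p = 0.0568), where the block gave an adjusted p of 0.0297.

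Several of these calls lay near the threshold and were lost when any of several libraries, or a letter, was left out. The call for Acaca in MitoNegative cells was lost without MitoPositive B, MitoNegative B, MitoPositive C, MitoNegative C, monoculture C, MitoPositive D or MitoNegative D (adjusted p from 0.0578 to 0.161). Leaving out letter B, C or D also lost it (adjusted p from 0.0835 to 0.406). It was lost with total counts as scale (0.103), without the low-count filter (0.117) and with only the 6 libraries compared (0.0966, and 0.142 with the block). The call for Elovl5 in MitoNegative cells was lost without monoculture B, MitoNegative C, MitoNegative D or monoculture D (adjusted p from 0.0529 to 0.0826). It was also lost without letter B, C or D (adjusted p from 0.0512 to 0.137). With only the 6 libraries compared the adjusted p was 0.0576, and 0.0815 with the block. The Fasn call was lost without MitoNegative B, MitoNegative C, monoculture C, MitoNegative D or monoculture D (adjusted p from 0.0650 to 0.119) in MitoNegative cells and without MitoPositive B, monoculture C or monoculture D (adjusted p from 0.0729 to 0.103) in MitoPositive cells. Without letter C or D it was lost in MitoNegative (adjusted p = 0.233 and 0.180) and MitoPositive cells (0.202 and 0.119). With only the 6 libraries compared it was lost in both (0.0536 and 0.0575). Scd1 did not pass without MitoNegative B, MitoNegative C, monoculture C or monoculture D (adjusted p from 0.0558 to 0.0764) in MitoNegative cells or without MitoPositive B, MitoPositive C, MitoNegative C, monoculture C or monoculture D (adjusted p from 0.0506 to 0.101) in MitoPositive cells. Without letter C or D it did not pass in MitoNegative (adjusted p = 0.171 and 0.0921) or MitoPositive cells (0.247 and 0.0960). Without the low-count filter it passed in neither (0.0864 and 0.123). With only the 6 libraries compared it did not pass in MitoPositive cells (0.0536). Scd2 in MitoNegative cells did not pass without monoculture B or MitoNegative D (adjusted p from 0.125 to 0.137), nor without letter B, C or D (adjusted p from 0.0711 to 0.101). Fads1 in MitoPositive cells did not pass without MitoPositive B, monoculture B, MitoPositive C or monoculture D (adjusted p from 0.0765 to 0.0907), and Fads2 in MitoNegative cells without MitoPositive B, MitoNegative B, monoculture B, MitoNegative C, monoculture C or MitoNegative D (adjusted p from 0.0516 to 0.126). That Fads1 call was also lost without letter B (adjusted p = 0.263) and without the low-count filter (0.0755). The Fads2 call in MitoNegative cells was also lost without letter B, C or D (adjusted p from 0.0555 to 0.159). Fads2 passed in MitoPositive cells without MitoPositive C (adjusted p = 0.0332) or monoculture D (adjusted p = 0.0419).

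Both sterol exporters were lower in MitoPositive cells. Abca1, which loads cholesterol onto lipid-poor apolipoprotein, was at 26.4, 23.7 and 25.5 CPM in monoculture, 11.9, 11.99 and 14.4 CPM in MitoNegative, and 11.5, 11.1 and 13.7 CPM in MitoPositive. Monoculture lay well above both other groups, and Abca1 was 1.97-fold lower in MitoNegative (-0.98 ± 0.10, adjusted p = 2.81e-05) and 2.08-fold lower in MitoPositive cells (-1.05 ± 0.10, adjusted p = 1.14e-05). Abcg1, which exports sterols to lipoprotein particles, was at 113, 128 and 132 CPM in monoculture, 110, 116 and 103 CPM in MitoNegative, and 82.6, 82.6 and 89.2 CPM in MitoPositive. It was 1.47-fold lower in MitoPositive cells (-0.55 ± 0.071, adjusted p = 7.92e-05). In MitoNegative cells it overlapped with monoculture and did not pass (-0.18 ± 0.070, adjusted p = 0.0586); the block gave an adjusted p of 0.0484, and leaving out monoculture B gave 0.0167.

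A further 80 genes of these pathways were matched to the table from lists, and 72 were tested. Over all genes tested, 38.9% passed in MitoNegative and 42.2% in MitoPositive cells. Among other enzymes of sterol and isoprenoid synthesis, Lbr, a sterol reductase of the nuclear membrane, fell in both comparisons (-0.62 ± 0.052, adjusted p = 5.83e-06 and -0.72 ± 0.052, adjusted p = 1.18e-06). Of 10 genes of SREBP processing and degradation, 2 fell in each, and 1 rose in MitoNegative and 3 in MitoPositive cells. That is 30% and 50% of the list. The largest fall there was in the ubiquitin ligase gene Rnf145 (-0.81 ± 0.067, adjusted p = 5.27e-06 and -0.98 ± 0.068, adjusted p = 7.96e-07), which was at 244, 243 and 241 CPM in monoculture, 141, 130 and 144 CPM in MitoNegative, and 123, 113 and 133 CPM in MitoPositive. Paqr3, a Golgi anchor, rose (1.13 ± 0.17, adjusted p = 2.80e-04 and 1.31 ± 0.17, adjusted p = 7.83e-05). Of 8 liver X receptor genes and targets, 4 fell and 1 rose in each, or 62.5%. Mylip, a ubiquitin ligase for lipoprotein receptors, fell (-0.59 ± 0.093, adjusted p = 4.90e-04 and -0.73 ± 0.094, adjusted p = 8.62e-05), as did Arl4c (-0.71 ± 0.11, adjusted p = 3.54e-04 and -0.46 ± 0.11, adjusted p = 0.00494), while the receptor gene Nr1h2 rose (0.34 ± 0.059, adjusted p = 8.04e-04 and 0.22 ± 0.059, adjusted p = 0.0106). Of 14 genes of sterol uptake, transport and storage, 3 fell in each and 3 rose in MitoNegative and 1 in MitoPositive cells. That is 42.9% and 28.6% of the list, near and below the shares over all genes. Npc2, which carries cholesterol in lysosomes, rose (0.68 ± 0.10, adjusted p = 3.24e-04 and 0.58 ± 0.10, adjusted p = 8.01e-04), and Lipa, the lysosomal lipase, fell (-0.36 ± 0.065, adjusted p = 0.00115 and -0.48 ± 0.065, adjusted p = 1.16e-04).

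Of 8 genes that supply acetyl-CoA and malonyl-CoA, 3 rose and 3 fell in each comparison, or 75%. Over all genes 38.9% passed in MitoNegative and 42.2% in MitoPositive cells. Acss2, the acetyl-CoA synthetase, fell (-0.73 ± 0.13, adjusted p = 0.00166 and -0.88 ± 0.13, adjusted p = 4.39e-04), and Acly, the citrate lyase, was at 290, 276 and 302 CPM in monoculture, 214, 230 and 214 CPM in MitoNegative, and 207, 222 and 219 CPM in MitoPositive and also fell (-0.40 ± 0.060, adjusted p = 3.12e-04 and -0.42 ± 0.060, adjusted p = 1.69e-04). Slc25a1, the mitochondrial citrate carrier, rose in MitoPositive cells (0.45 ± 0.061, adjusted p = 1.24e-04). Me1, the malic enzyme, had about 1 count per monoculture library (0.0164 to 0.0166 CPM) and 0.148 to 0.299 CPM in co-culture. Of 11 other elongation and desaturation genes, 3 rose and 2 fell in MitoNegative and 5 rose in MitoPositive cells, or 45.5% in each. Fads3 was among the rises, from 0 to 0.0166 CPM in monoculture to 0.105 to 0.401 CPM in co-culture. Of 14 genes of fatty acid activation and glycerolipid synthesis, 7 rose and 1 fell in MitoNegative and 8 rose in MitoPositive cells. That is 57.1% in each. Dgat1, which makes triglyceride from diacylglycerol, was at 12.6, 12.4 and 11.2 CPM in monoculture, 36.99, 36.5 and 43.7 CPM in MitoNegative, and 60.2, 57.6 and 48.8 CPM in MitoPositive. Without overlap between any groups it was 3.24-fold higher in MitoNegative (1.69 ± 0.098, adjusted p = 4.93e-07) and 4.60-fold higher in MitoPositive cells (2.20 ± 0.099, adjusted p = 4.87e-08). Dgat2, the other enzyme of that step, was 2.60-fold higher in MitoNegative (1.38 ± 0.26, adjusted p = 0.00163) and 2.60-fold higher in MitoPositive cells (1.38 ± 0.27, adjusted p = 0.00139), from a low level of 0.459 to 0.665 CPM in monoculture.

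Within the co-culture, the sorted groups were compared to ask whether the genes differed between T cells with and without labelled stromal mitochondria. By edgeR's quasi-likelihood test 0 of the 33 genes passed, against 0.165% of all genes (0.0891% higher and 0.0764% lower). An unadjusted p under 0.05 was found for 6, or 18.2%, against 10.5% of all genes. The groups did not overlap for 8, or 24.2%, 4 higher and 4 lower, against 20.0% of all genes. DESeq2 called 4 (Lss higher, and Insig1, Elovl5 and Abcg1 lower), or 12.1%, against 3.22% of the 12969 genes to which it gave an adjusted p, and limma voom called 0, against 0.433% of all genes. With the replicate letter as a block, which pairs libraries of the sorted groups, Insig1 and Abcg1 were lower, 6.06% of the set against 2.34% of all genes. The 2 sorted groups alone with the block gave 11 calls, or 33.3%, against 18.2% of the 15431 genes then tested. Of these Sqle, Lss, Nsdhl, Stard4 and Scd2 were higher and Hmgcs1, Insig1, Elovl5, Elovl6, Fads1 and Abcg1 lower. Without monoculture B, or without monoculture D, Abcg1 was called (adjusted p = 0.0415 and 0.0405), as it was without letter D (adjusted p = 0.0367).

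The genes with the lowest p-values in this comparison came from each role. Abcg1 was at 110, 116 and 103 CPM in MitoNegative and 82.6, 82.6 and 89.2 CPM in MitoPositive cells, and was lower in all 3 letters (-0.37 ± 0.071, adjusted p = 0.0584; block adjusted p = 0.0222). Insig1 was lower in all 3 letters, at 25.8, 26.7 and 27.3 CPM against 18.7, 22.6 and 21.5 CPM (-0.34 ± 0.075, adjusted p = 0.0866; block adjusted p = 0.0235). Lss was higher in all 3, at 23.6, 24.6 and 26.6 CPM against 30.5, 33.3 and 29.5 CPM (0.32 ± 0.075, adjusted p = 0.108; block adjusted p = 0.0630). Elovl5 stood at 163, 163 and 151 CPM against 134, 136 and 135 CPM (-0.23 ± 0.060, adjusted p = 0.146; block adjusted p = 0.0785). These 4 differences had no overlap between the groups. They passed with DESeq2 (adjusted p from 6.43e-04 for Abcg1 to 0.0221 for Elovl5) and with the block and the sorted groups alone (adjusted p from 2.01e-04 for Elovl5 to 7.81e-04 for Lss), and Lss, Insig1 and Abcg1 passed without the low-count filter. Nsdhl (0.24 ± 0.096, adjusted p = 0.386) and Scd2 (0.23 ± 0.10, adjusted p = 0.466) had an unadjusted p under 0.05, and passed with the block and the sorted groups alone (adjusted p = 0.00883 and 1.83e-04). For the other 27 genes the log2 fold change lay between -0.33 and 0.15. The 95% interval was -0.24 to 0.01 for Hmgcs1, -0.10 to 0.22 for Srebf2, -0.18 to 0.17 for Fasn and -0.30 to 0.15 for Abca1 without the block. With the block and the sorted groups alone, Hmgcs1 passed (adjusted p = 0.0428), as did Sqle (0.0349), Stard4 (0.0363) and Elovl6 (0.0211). Outside the set, Dgat1 gave 0.51 ± 0.093, adjusted p = 0.0574, and with the block an adjusted p of 0.0253. The B cell marker Ighm was at 400, 425 and 340 CPM in MitoNegative and 259, 277 and 277 CPM in MitoPositive cells (-0.52 ± 0.085, adjusted p = 0.0464). Its part in the lower Abcg1 and Insig1 levels was not tested.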

How the data were processed

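RNA was measured in 9 libraries of mouse CD8+ T cells, 3 per group, grouped by the labels. The deposited table holds raw counts per gene for 55520 entries; its 99 spike-in entries had 0 counts and were left out. Per the submitters' processing notes the authors used bcl2fastq, cutadapt, STAR 2.7, featureCounts and DESeq2 with build GRCm38. The role of each tool, the annotation release and the strandedness are not given in the sources used here. Without strand, reads from overlapping genes cannot be separated, and 10 of the 33 members share exon bases with another gene. A second deposited table holds 16163 of the genes with equal counts and was not used. Of the identifiers, 54587 were found in GENCODE M21, and the deposited exon lengths of those equalled the M21 exon unions.

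The main test used edgeR 4.0.16 (R 4.3.3) on the deposited counts: filterByExpr (minimum count 10, minimum total 15), TMM scaling, robust quasi-likelihood over the 9 libraries by group with no block (6 residual degrees of freedom), and Benjamini-Hochberg adjustment over 15711 genes at 0.05. Replicates of a group differed by more than sampling noise (chi-square per degree of freedom 18.3 to 64.3). Depths were 53546152 to 74722832 counts, and precision is given by the standard errors. The fit was tested on simulated data made from the means and depths of these libraries, with 15431 genes past the filter. For each comparison 60 to 65 of 100 genes changed 2-fold and 44 to 46 of 100 changed 1.5-fold were called, with 4 to 9 false calls. Alternatives were other scalings, no filter, DESeq2 1.42.0, limma 3.58.1 voom, the block, the compared libraries alone, and leaving out each library or letter.

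Residuals of libraries with the same letter correlated at 0.402, 0.339 and 0.459 (B, C and D) between the sorted groups, at 0.213, 0.153 and 0.111 between MitoNegative and monoculture, and at 0.248, 0.0521 and 0.163 between MitoPositive and monoculture. By a threshold of 0.1 the letters pair the first 2 comparisons, and values with the replicate block stand beside results whose call they change.

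The 33 members and the lists were chosen with earlier results of these data known. All members are named. Of the other pathway genes, up to 2 rises and 2 falls per list and comparison with the largest change among those that passed could be named; 1 listed symbol was not matched. One result of the list of other sterol enzymes is not reported here, nor is the count for that list. Markers named are the highest of each list, Cd8a, Ptprc and Col1a1, and Sparc, which was chosen after its values were seen, as were Cd5 and the comparison among genes with a mean of at least 5 CPM. Promoters come from the RefSeq table (GRCm38.p6), where 25 members were matched. Sequences were searched on both strands. Searches with a longer sterol element pattern and a liver X receptor element pattern are not shown. They do not show that the members lack such elements, because variants of a pattern can go unmatched.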

Additional observations from a re-analysis of the deposited data

How the results depend on the processing

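Across the 20 alternatives no gene called against monoculture changed sign. Between MitoPositive and MitoNegative cells the count of genes called moved from 0 to 3 without the low-count filter, 4 with DESeq2, 1 with only the 6 libraries compared, 2 with the replicate block and 11 with both the block and only those libraries, and ranged from 0 to 1 when a library or letter was left out. In the whole table the 26 genes called there became 15 with DESeq2's size factors, 14 with total counts, 171 without the filter, 418 with DESeq2, 68 with limma voom, 65 with the 6 libraries, 367 with the block and 2810 with both. The count for MitoNegative against monoculture ranged from 8 to 19 over the leave-outs. Besides Insig1, Abcg1, Msmo1, Sc5d and Fads2, whose values stand above, the block over all libraries changed no call among the 33 genes. The log2 fold change turned sign for genes that did not pass. For Fasn between the sorted groups it was 0.011 with total counts and 0.0088 without the filter. For Nsdhl in MitoPositive cells against monoculture it was 0.038 with total counts, 0.022 without the filter, 0.0043 with limma voom, 0.0027 with the block, 0.015 with only the 6 libraries and 0.020 with both. Leave-out ranges that crossed 0 between the sorted groups were Abca1 from -0.17 to 0.021, Cyp51 from -0.033 to 0.043, Dhcr7 from -0.094 to 0.028, Fads2 from -0.37 to 0.17, Fasn from -0.032 to 0.036, Fdft1 from -0.014 to 0.056, Fdps from -0.23 to 0.073, Msmo1 from -0.030 to 0.051, Mvd from -0.068 to 0.12, Mvk from -0.12 to 0.021, Scd1 from -0.080 to 0.25. In MitoPositive cells against monoculture they were Fdps from -0.12 to 0.23, Mvk from -0.14 to 0.018, Nsdhl from -0.065 to 0.12, and in MitoNegative cells Fdps from -0.10 to 0.33, Mvk from -0.11 to 0.064, Pmvk from -0.0024 to 0.14, Scap from -0.026 to 0.10. The cause of these shifts was not tested. Fads2 and Fdps rest on few counts.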
